A study of Mus musculus with 6 samples.

Results

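The MMP, ADAMTS and TIMP genes encode the secreted and membrane-bound enzymes that cut the extracellular matrix, and the inhibitors that hold those enzymes back. They were taken from 6 single-color microarrays by their names, as genes whose RefSeq transcript maps to a symbol made of Mmp, Adamts or Timp and a number. This gave 43 genes with 64 probes, of 45616 features on the array: 20 MMP genes, 19 ADAMTS genes and 4 TIMP genes. A gene counted as measured where the scanner software called its brightest probe well above background on every array of at least 1 population. This held for 33 of the 43, namely 13 MMP, 16 ADAMTS and 4 TIMP genes.

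By the study's methods, the arrays held RNA of islet cells of Wnt4eGFPCre; mTmG pups at postnatal day 1, sorted by FACS into mGFP+ cells (Wnt4hi, 3 arrays, replicates 2, 3 and 4) and mGFP- cells (Wnt4low, 3 arrays, replicates 1, 3 and 4). In mTmG mice, Cre recombination switches a cell permanently to membrane GFP, so mGFP marks cells in which the Wnt4eGFPCre allele has been active and not the Wnt4 level at the time of sorting. The study used this tracer because the GFPCre fusion protein itself was too dim for sorting. Each array received RNA pooled from the islets of 3 or 4 pups, and the labels give the genotype only as Wnt4pos and Wnt4neg. A supplementary legend of the study names the low group by the absence of the Wnt4eGFPCre transgene, which would make the comparison one of genotypes, and the sources used here do not settle which description holds. The mice came from crosses to C57BL/6J, and no treatment is listed. The sexes of the pups are not stated, and nothing in the labels says whether arrays with the same replicate number came from the same pups, so that p-values measure the spread between these pools.

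Matrix metalloproteinases (MMPs) are zinc enzymes that cut collagens, gelatin and other matrix proteins. They are made as inactive precursors, and membrane-type MMPs at the cell surface activate some of the secreted ones. ADAMTS enzymes carry thrombospondin repeats that hold them in the matrix, and they cut proteoglycans such as versican and aggrecan, trim procollagens or act on microfibrils and von Willebrand factor. TIMPs bind the active site of these enzymes and block it, and in the pancreas matrix turnover accompanies the growth of vessels and the clustering of endocrine cells into islets around birth.

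All 6 arrays lay on 1 slide, and 70.5% to 79.5% of spots per array were well above background. The Wnt4 probe itself was at log2 intensities of 10.5 to 11.2 on the Wnt4hi arrays and 9.31 to 10.1 on the Wnt4low arrays, with no overlap (log2 fold change 1.08, adjusted p = 0.212). Over all features the median log2 fold change, given throughout as Wnt4hi minus Wnt4low, was 0.07.

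Promoters are shown for the measured members whose levels differed between the populations at the unadjusted threshold described below and whose sequence was at hand, so that the genes can be set against their upstream sequence. RefSeq promoters of GRCm38.p6 were at hand for 21 of the 33 measured members. The 250 bases before the annotated start of transcription are printed 5′ to 3′ on the strand of the gene. Capitals mark matches, on either strand, to the TATA box (TATAAA), the AP-1 motif (TGANTCA) and the GC box (GGGCGG, whose reverse complement is CCGCCC).
Mmp14, chr14:54431348-54431597, plus strand: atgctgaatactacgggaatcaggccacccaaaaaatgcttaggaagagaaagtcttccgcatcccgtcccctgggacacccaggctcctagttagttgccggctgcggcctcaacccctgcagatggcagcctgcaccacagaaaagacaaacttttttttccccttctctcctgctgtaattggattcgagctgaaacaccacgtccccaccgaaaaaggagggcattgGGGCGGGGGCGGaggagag
Mmp24, chr2:155775092-155775341, plus strand: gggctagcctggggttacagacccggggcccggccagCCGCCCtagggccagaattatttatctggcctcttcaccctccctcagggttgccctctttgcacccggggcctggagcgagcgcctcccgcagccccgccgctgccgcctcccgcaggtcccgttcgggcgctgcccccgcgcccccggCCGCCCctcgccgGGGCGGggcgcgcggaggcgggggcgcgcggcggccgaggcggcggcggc
Adamts1, chr16:85803114-85803363, minus strand: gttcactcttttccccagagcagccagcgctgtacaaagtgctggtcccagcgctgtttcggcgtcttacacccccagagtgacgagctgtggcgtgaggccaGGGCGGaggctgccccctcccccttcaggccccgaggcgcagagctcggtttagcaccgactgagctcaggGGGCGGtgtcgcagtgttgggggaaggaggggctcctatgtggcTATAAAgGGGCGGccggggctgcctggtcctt
Adamts9, chr6:92943535-92943784, minus strand: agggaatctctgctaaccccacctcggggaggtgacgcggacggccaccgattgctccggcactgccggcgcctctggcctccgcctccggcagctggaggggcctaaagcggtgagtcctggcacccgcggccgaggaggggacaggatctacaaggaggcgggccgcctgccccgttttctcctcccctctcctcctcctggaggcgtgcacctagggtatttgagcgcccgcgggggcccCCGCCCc
Adamts2, chr11:50601835-50602084, plus strand: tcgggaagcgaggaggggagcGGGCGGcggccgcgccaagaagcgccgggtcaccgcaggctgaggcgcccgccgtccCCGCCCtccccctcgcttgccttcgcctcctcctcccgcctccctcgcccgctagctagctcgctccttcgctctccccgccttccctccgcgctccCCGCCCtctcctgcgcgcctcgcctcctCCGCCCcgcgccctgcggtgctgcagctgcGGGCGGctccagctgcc
Timp3, chr10:86300162-86300411, plus strand: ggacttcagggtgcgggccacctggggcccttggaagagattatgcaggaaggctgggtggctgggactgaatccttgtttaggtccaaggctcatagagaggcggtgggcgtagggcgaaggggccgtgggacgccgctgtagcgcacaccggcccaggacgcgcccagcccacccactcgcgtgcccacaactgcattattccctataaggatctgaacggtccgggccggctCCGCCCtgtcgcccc
Mmp24 is the member that was higher in Wnt4hi, and the other 5 genes were lower. All 6 windows hold a GC box, which stands in 32.7% of the 32851 promoters searched and in 14 of the 22 promoters of measured members, of which Mmp23 has 2. A TATA box was found 32 bases before the start of Adamts1, near a GC box 25 bases before the start, and in 12.4% of all promoters. The AP-1 motif, found in 6.75% of all promoters, had no match in these 6 windows and 1 match among measured members, in Mmp3. The windows held 55.2% G and C bases for Mmp14, 65.6% for Adamts1 and Timp3, 71.2% for Adamts9, 78% for Adamts2 and 79.2% for Mmp24. These matches describe letters and were not tested against the expression values.

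Most of the MMP, ADAMTS and TIMP genes with a sizeable difference were lower in the Wnt4hi population, among them 5 ADAMTS proteoglycanases, the gelatinase Mmp2 and the inhibitor Timp3. Of these genes, Adamts8, Adamts15 and Mmp2 were measured in Wnt4low alone. At an unadjusted limma p below 0.05, the threshold the study used, 12 of the 43 genes were lower in Wnt4hi, beside 5.53% of all features, and 1 was higher, beside 5.02% of all features. Of the 33 measured genes, 11 were lower and 1 was higher, beside 6.99% and 6.48% of the 31996 features measured in the same way. The twelfth lower gene, Adamts19, was not measured in either population, with log2 intensities of 7.35, 6.56 and 7.28 on the Wnt4hi arrays and of 7.86, 7.76 and 7.46 on the Wnt4low arrays, 2 of them well above background. No member passed the adjusted threshold of 0.05 over all features, which 0.403% of features did as lower and 0.0351% as higher. The smallest adjusted p of a member was 0.0708, shared by Adamts4, Adamts8 and Timp3.

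Being measured in Wnt4low alone favours a lower value in Wnt4hi, and this applied to 5 members (Adamts3, Adamts8, Adamts15, Mmp2 and Mmp11), while 0 members were measured in Wnt4hi alone. Among the 28 members above background on all 6 arrays, 8 were lower and 1 was higher at the unadjusted threshold, beside 5.68% and 6.19% of the 28882 features of that kind. The median log2 fold change was -0.16 over all 43 members, -0.20 over the measured ones and -0.10 over those 28. The arrays of the populations stood apart, with every Wnt4hi array below every Wnt4low array, for 12 of the 43, beside 6.44% of all features. They stood apart the other way for 2 of the 43, Mmp24 and the unmeasured Mmp10, beside 9.56%. With 3 arrays against 3, an exact permutation test of 1 gene cannot go below p = 0.1, so the limma fit across all features was used.

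**Figure D1:**
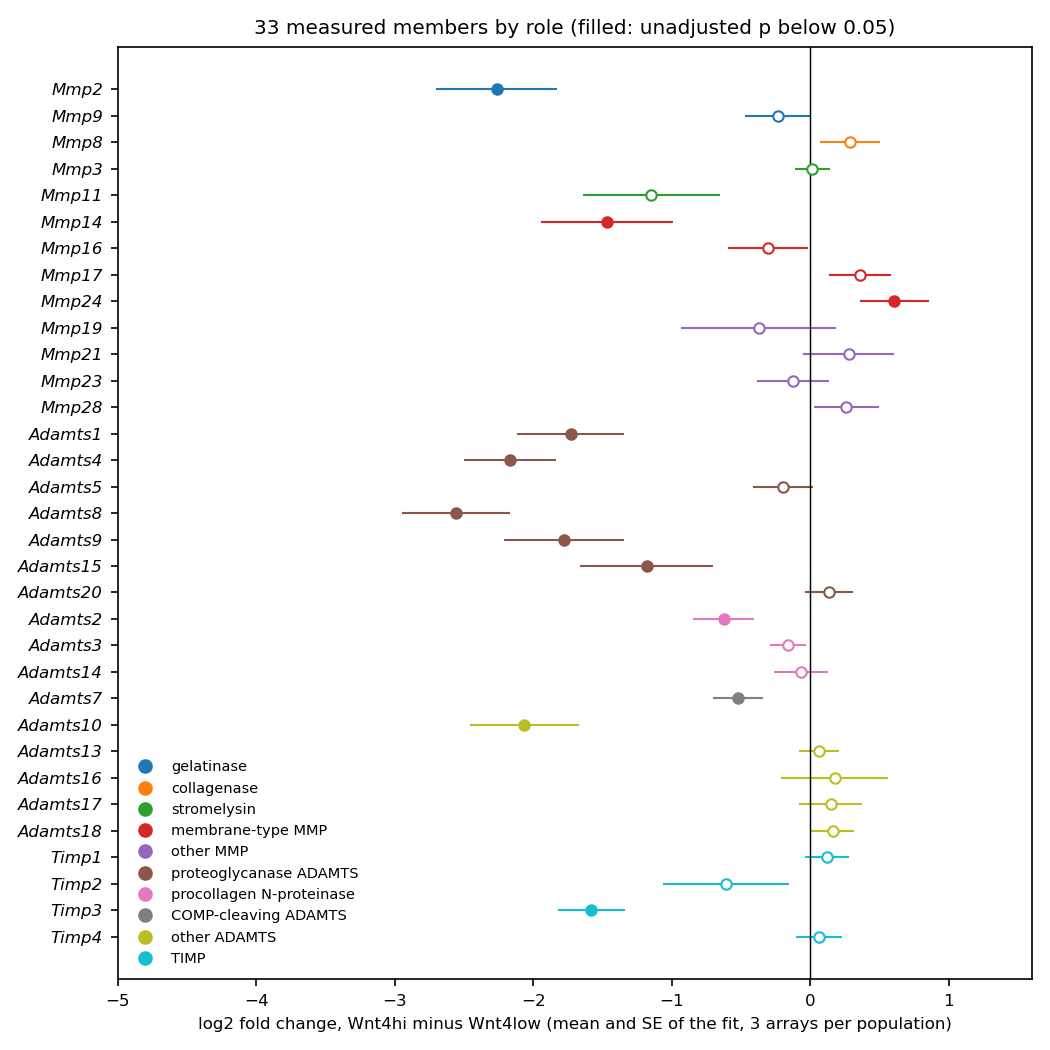
Log2 fold change (Wnt4hi minus Wnt4low) of the 33 measured members on the horizontal axis, grouped by role, with the standard error of the limma fit over 3 arrays per population. Filled points have an unadjusted p below 0.05, and 11 of the 12 filled points lie to the left of 0. Adamts8, drawn at its fitted -2.56, was not above background on any Wnt4hi array, so that it has no settled order beside Mmp2 at -2.26.

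The gelatinases, which digest denatured collagen and basement membrane collagen, are Mmp2 and Mmp9. Mmp2 had log2 intensities of 8.79, 7.05 and 7.89 on Wnt4hi replicates 2, 3 and 4 and of 9.97, 10.07 and 10.49 on Wnt4low replicates 1, 3 and 4. Every Wnt4low array was brighter than every Wnt4hi array, and the 3 Wnt4low arrays lay close together. The log2 fold change was -2.26 (SE 0.44, adjusted p = 0.119), and 2 of the 3 Wnt4hi arrays were well above background. Mmp9, the gelatinase of leukocytes, had a log2 fold change of -0.24 (adjusted p = 0.814), and its arrays overlapped.

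Of the collagenases, which cut fibrillar collagen, only Mmp8 was measured, with a log2 fold change of 0.28 (adjusted p = 0.754). Of the stromelysins, which have a broad range of matrix substrates, Mmp3 had a log2 fold change of 0.02 (adjusted p = 0.982). Mmp11, an MMP known from fibroblasts around epithelia, had a log2 fold change of -1.15 (adjusted p = 0.503) and was above background on 1 Wnt4hi array and all Wnt4low arrays. Mmp11 passed the unadjusted threshold where Wnt4low replicate 3 was left out (log2 fold change -1.53, adjusted p = 0.34) and was -0.74 (adjusted p = 0.719) without Wnt4low replicate 1 and -0.80 (adjusted p = 0.777) without Wnt4hi replicate 3. Without Wnt4hi replicate 2, the Wnt4hi array that showed it above background, it also passed (adjusted p = 0.395) and was at least 2.01-fold lower against the background level.

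Membrane-type MMPs act at the cell surface, and of the 4 measured 1 was lower and 1 was higher at the unadjusted threshold, beside 6.99% and 6.48% of all measured features. Mmp14, which activates the precursor of MMP2 and cuts collagen itself, had log2 intensities of 9.77, 9.16 and 7.90 on Wnt4hi replicates 2, 3 and 4 and of 10.71, 10.23 and 10.30 on Wnt4low replicates 1, 3 and 4. The populations did not overlap, although Wnt4hi replicate 2 came near the Wnt4low arrays. Its log2 fold change was -1.47 (SE 0.48, adjusted p = 0.336). It missed the unadjusted threshold without Wnt4low replicate 1 (-1.32, adjusted p = 0.596) and was -0.94 without Wnt4hi replicate 4.

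Mmp24, a membrane-type MMP best known from neurons, had log2 intensities of 10.83, 10.14 and 10.12 on the Wnt4hi arrays and of 9.61, 9.61 and 10.04 on the Wnt4low arrays. All Wnt4hi arrays were brighter, by a narrow gap between Wnt4hi replicate 4 and Wnt4low replicate 4. The log2 fold change of 0.61 (SE 0.25, adjusted p = 0.474) lay at the edge of the threshold and passed in 5 of 21 other ways of processing. It missed the unadjusted threshold without Wnt4hi replicate 2 (0.37) or replicate 3 (0.72) and without Wnt4low replicate 1 (0.53) or replicate 3 (0.54). The other membrane-type MMPs measured, Mmp16 and the lipid-anchored Mmp17, had log2 fold changes of -0.30 (adjusted p = 0.807) and 0.36 (adjusted p = 0.687).

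The remaining measured MMPs did not pass the unadjusted threshold. Mmp19 had a log2 fold change of -0.37 and Mmp23 of -0.13, while Mmp21, needed for left-right patterning of the embryo, had 0.28 and Mmp28, an epithelial MMP, had 0.26. Mmp7, Mmp10, Mmp12, Mmp13, Mmp15, Mmp20 and Mmp25 were not measured. A cluster of 10 neighbouring MMP genes lies on mouse chromosome 9, and it holds 5 of these 7, namely Mmp7, Mmp10, Mmp12, Mmp13 and Mmp20. Mmp3 and Mmp8, with log2 fold changes of 0.02 and 0.28, were the measured genes of that cluster.

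**Figure D2:**
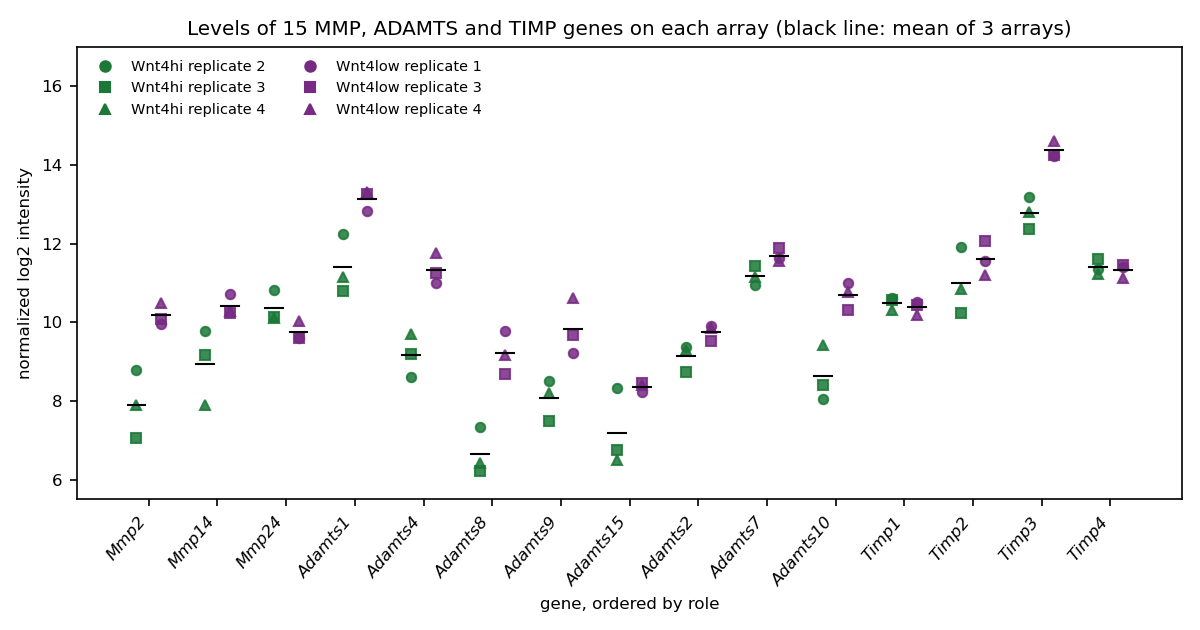
Normalized log2 intensity on the vertical axis for 15 members, with 3 Wnt4hi arrays (green) and 3 Wnt4low arrays (purple) and the mean of each population as a black line. Shown are the measured genes with an unadjusted p below 0.05 and all 4 TIMPs, and the green and purple points do not overlap for Mmp2, Adamts4, Adamts8 or Timp3, among others, but overlap for Adamts15, Timp1, Timp2 and Timp4.

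The ADAMTS proteoglycanases, which cut versican and aggrecan, held 5 of the 11 measured lower members. Of the 7 genes of this group, all measured, 5 passed the unadjusted threshold as lower and 0 as higher, beside 6.99% and 6.48% of all measured features. Adamts8 and Adamts15 were measured in Wnt4low alone, which favours a lower value in Wnt4hi. Of the 5 genes above background on all 6 arrays, 3 were lower and 0 higher, beside 5.68% and 6.19% of such features. The median log2 fold change of the 7 was -1.73, also with Adamts8 set to the bound given below, beside 0.09 over all measured features. Adamts1, a versican-cutting enzyme that also restrains vessel growth, had log2 intensities of 12.25, 10.81 and 11.15 on the Wnt4hi arrays and of 12.83, 13.26 and 13.30 on the Wnt4low arrays. All 3 Wnt4low arrays were brighter, and Wnt4hi replicate 2 lay nearest to them. Its log2 fold change was -1.73 (SE 0.39, adjusted p = 0.166), which is 3.32-fold.

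Adamts4, an aggrecanase, had log2 intensities of 8.61, 9.19 and 9.70 on the Wnt4hi arrays and of 10.99, 11.25 and 11.75 on the Wnt4low arrays. The populations were separated by more than either spread, and here Wnt4hi replicate 2 was the dimmest array. The log2 fold change was -2.17 (SE 0.33, adjusted p = 0.0708), which is 4.49-fold.

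Adamts8, an ADAMTS enzyme with antiangiogenic repeats, had log2 intensities of 7.33, 6.22 and 6.42 on the Wnt4hi arrays and of 9.79, 8.69 and 9.16 on the Wnt4low arrays. None of the Wnt4hi arrays showed it well above background, whereas all Wnt4low arrays did. The fitted log2 fold change was -2.56 (SE 0.39, adjusted p = 0.0708). Set against the lowest signal that counted as above background, Adamts8 was at least 3.69-fold lower in Wnt4hi.

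Adamts9, which cuts versican and is made by vascular and stromal cells, had log2 intensities of 8.51, 7.48 and 8.20 on the Wnt4hi arrays and of 9.21, 9.69 and 10.63 on the Wnt4low arrays. The arrays did not overlap, and each population spread over more than 1 log2 unit. The log2 fold change was -1.78 (SE 0.43, adjusted p = 0.197).

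Adamts15 had log2 intensities of 8.32, 6.74 and 6.49 on the Wnt4hi arrays and of 8.23, 8.46 and 8.41 on the Wnt4low arrays. Wnt4hi replicate 2 lay within the Wnt4low range, and the other Wnt4hi arrays lay well below it and were not above background. The log2 fold change was -1.18 (SE 0.48, adjusted p = 0.467). Without Wnt4hi replicate 2, no Wnt4hi array was above background, and Adamts15 was at least 2.09-fold lower in Wnt4hi (adjusted p = 0.0544 of the fit). Without any 1 of the other 5 arrays it missed the unadjusted threshold, at log2 fold changes from -1.25 to -0.83. Adamts5, the main aggrecanase of cartilage, had a log2 fold change of -0.20 (adjusted p = 0.835), and Adamts20, which cuts versican in skin, had 0.14 (adjusted p = 0.86).

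The procollagen N-proteinases remove the end peptides of fibrillar procollagens. Adamts2 had log2 intensities of 9.38, 8.74 and 9.31 on the Wnt4hi arrays and of 9.91, 9.52 and 9.86 on the Wnt4low arrays, which did not overlap. Its log2 fold change of -0.63 (SE 0.22, adjusted p = 0.389) missed the unadjusted threshold without Wnt4hi replicate 3 (-0.42), Wnt4low replicate 1 (-0.55) or Wnt4low replicate 4 (-0.58). It was also missed with the authors' deposited log2 values (-0.32, or -0.44 without their column for Wnt4hi replicate 2). The same held for intensity scaled to the 75th percentile (-0.61) and for a Student t-test. A further probe for the same transcript, also above background on all 6 arrays, gave -0.19 (SE 0.20) with overlapping arrays, so the difference rests on 1 of its 2 probes. Adamts3 and Adamts14 had log2 fold changes of -0.16 (adjusted p = 0.772) and -0.07 (adjusted p = 0.946).

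Adamts7, which cuts the cartilage protein COMP and acts in vascular smooth muscle, had log2 intensities of 10.95, 11.44 and 11.14 on the Wnt4hi arrays and of 11.63, 11.88 and 11.57 on the Wnt4low arrays. The gap between the populations was narrow, and the log2 fold change was -0.52 (SE 0.18, adjusted p = 0.371). It missed the unadjusted threshold without Wnt4hi replicate 2 (-0.41), Wnt4hi replicate 4 (-0.50) or Wnt4low replicate 3 (-0.43). The threshold was also missed with the replicate number as a block (-0.44). So it was with the authors' deposited log2 values without their column for Wnt4hi replicate 2 (-0.42). Its relative Adamts12 was not measured.

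Adamts10, which binds fibrillin microfibrils, had log2 intensities of 8.05, 8.40 and 9.44 on the Wnt4hi arrays and of 11.00, 10.30 and 10.77 on the Wnt4low arrays. The populations did not overlap, and the log2 fold change was -2.06 (SE 0.39, adjusted p = 0.114). The gene has a further probe for the same transcript, also above background on all 6 arrays, whose log2 fold change was 0.00 (SE 0.22), so the difference rests on 1 of its 2 probes. The mean of both probes gave -1.03, and the authors' deposited log2 values gave -0.71. Without their column for Wnt4hi replicate 2, Adamts10 was at -0.69 and missed the unadjusted threshold. Adamts13, the enzyme that trims von Willebrand factor, had a log2 fold change of 0.06, and Adamts16, Adamts17 and Adamts18 had 0.18, 0.15 and 0.16, all with p above the threshold. Adamts6 and Adamts19 were not measured.

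All 4 TIMPs were above background on all 6 arrays, and Timp3 alone passed the unadjusted threshold. Timp3, the TIMP that binds to the matrix and also inhibits ADAMTS and ADAM enzymes, had log2 intensities of 13.19, 12.37 and 12.81 on the Wnt4hi arrays and of 14.23, 14.26 and 14.62 on the Wnt4low arrays. The populations were well separated, and the log2 fold change was -1.58 (SE 0.24, adjusted p = 0.0708), which is 2.99-fold. A further Timp3 probe gave -2.06 (SE 0.24).

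Timp2, which takes part in the activation of MMP2 by MMP14, had log2 intensities of 11.92, 10.25 and 10.84 on the Wnt4hi arrays and of 11.56, 12.06 and 11.21 on the Wnt4low arrays. Wnt4hi replicate 2 lay above a pair of the Wnt4low arrays, and the log2 fold change was -0.61 (SE 0.46, adjusted p = 0.746). Without Wnt4hi replicate 2 it was -1.07 (adjusted p = 0.309) and passed the unadjusted threshold, whereas without Wnt4hi replicate 3 it was -0.23 (adjusted p = 0.967) and without Wnt4low replicate 3 it was -0.39 (adjusted p = 0.89). The dimmer probe of Timp2 gave -1.58 (SE 0.36) on all arrays.

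Timp1, an inhibitor induced in inflammation, had log2 intensities of 10.62, 10.57 and 10.32 on the Wnt4hi arrays and of 10.51, 10.45 and 10.19 on the Wnt4low arrays. Timp4, the TIMP of heart and fat, had 11.36, 11.60 and 11.23 on the Wnt4hi arrays and 11.41, 11.45 and 11.14 on the Wnt4low arrays. The populations overlapped in part for both genes, with log2 fold changes of 0.12 (SE 0.16, adjusted p = 0.867) for Timp1 and 0.06 (SE 0.17, adjusted p = 0.939) for Timp4.

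**Figure D3:**
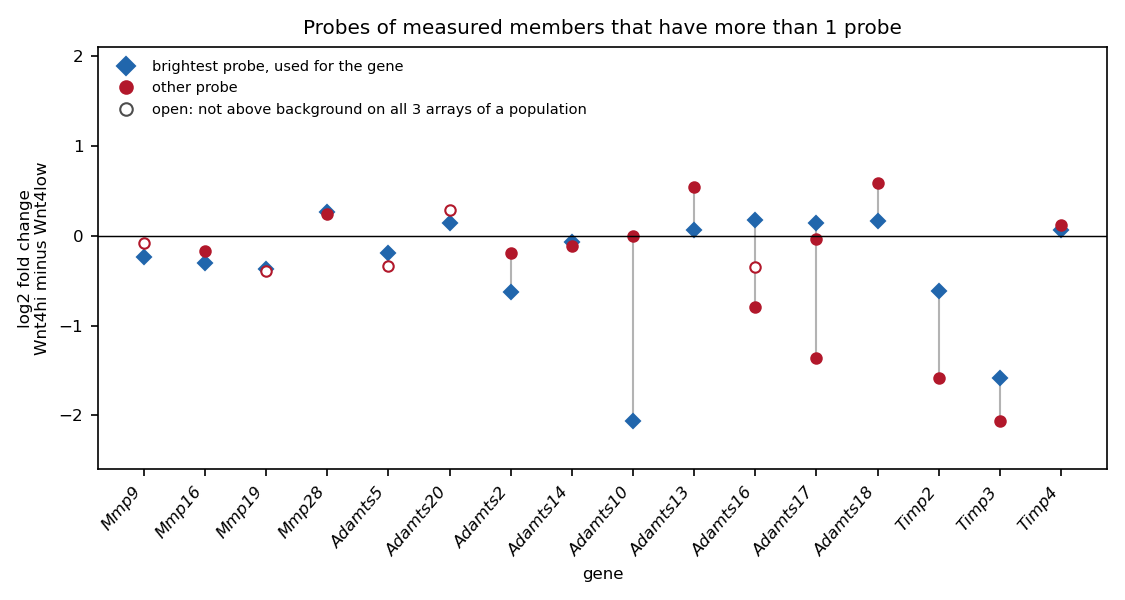
Log2 fold change (Wnt4hi minus Wnt4low) of each probe, on the vertical axis, for the measured members with more than 1 probe, with the brightest probe as a blue diamond. Adamts10, Adamts16, Adamts17 and Timp2 have probes that lie more than 0.9 apart, while both probes of Timp3 lie below -1.5 and both probes of Timp4 near 0.

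Probes of 1 gene disagreed for several members besides Adamts2, Adamts10 and Timp2. A dimmer probe of Adamts17 had a log2 fold change of -1.36 (SE 0.37) and its dimmest probe -0.03, beside 0.15 for the brightest. A dimmer probe of Adamts16 gave -0.80 (SE 0.35), and one of Adamts18 gave 0.59 (SE 0.24). The files name the transcript of each probe but not its position in it, so these probes could not be assigned to isoforms.

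Genes that activate or inhibit these enzymes or serve as their substrates are given from lists of pathway genes. Of 18 activators and inhibitors on the array, 6 were lower and 1 was higher in Wnt4hi at the unadjusted threshold, beside 5.53% and 5.02% of all features. The plasminogen activators Plat and Plau, which start the cascade that activates several MMPs, had log2 fold changes of -2.14 (adjusted p = 0.162) and -1.05 (adjusted p = 0.0999). The thrombospondins Thbs1 and Thbs2 had -2.09 and -2.03, and Lrp1, a receptor that clears MMPs, ADAMTS enzymes and TIMPs from outside the cell, had -0.72 (adjusted p = 0.298). The 1 gene higher was Bmp1, a procollagen C-proteinase, at 0.45 (adjusted p = 0.424).

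Of 8 substrates of ADAMTS enzymes, 4 were lower and 0 were higher at the unadjusted threshold, beside 5.53% and 5.02% of all features. These were the proteoglycan versican (Vcan, log2 fold change -1.80, adjusted p = 0.0625), the fibrillins Fbn1 (-1.44, adjusted p = 0.17) and Fbn2 (-0.75, adjusted p = 0.389), and von Willebrand factor (Vwf, -1.04, adjusted p = 0.382). The substrates Acan and Bcan were not measured. Of 11 ADAM genes, which encode membrane-bound relatives of the ADAMTS enzymes, 3 were lower and 0 were higher, beside the same shares of all features. Adam19 was the gene among them that passed the adjusted threshold (log2 fold change -1.83, adjusted p = 0.0348). Adam15 had -1.67 (adjusted p = 0.362) and Adam10, a major sheddase, had -0.62 (adjusted p = 0.282). Of the 6 ADAMTS-like genes, which lack the catalytic part, 0 passed in either direction at the unadjusted threshold, and their log2 fold changes ran from -0.67 to 0.08.

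Most endothelial markers and most pericyte and fibroblast markers were lower in Wnt4hi, as the lower members were. Of all features, 5.53% were lower at the unadjusted and 0.403% at the adjusted threshold. Of 10 endothelial markers, 10 had a log2 fold change below 0, 9 passed the unadjusted and 8 the adjusted threshold, and the median was -3.63. Their summed normalized intensity was 3738 to 4778 on the Wnt4hi arrays and 30468 to 56086 on the Wnt4low arrays, and every array showed 7 of the 10 well above background. Of the defining markers, Pecam1, Cdh5 and Kdr were among these 7, while Tie1 and Tek were not well above background on any Wnt4hi array. Of 11 pericyte and fibroblast markers, 11 were below 0, 7 passed the unadjusted and 0 the adjusted threshold, with sums of 32182 to 54036 and 72408 to 96789. All 11 were well above background on every array of both populations.

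The counts of the following marker lists stand beside 5.53% of all features lower and 5.02% higher at the unadjusted threshold. Of 10 macrophage and other leukocyte markers, 4 were lower at the unadjusted threshold, 0 were higher, and 0 passed the adjusted threshold. Their sums were 68296 to 77372 on the Wnt4hi arrays and 75176 to 96904 on the Wnt4low arrays, of which Itgam (log2 fold change -0.09, adjusted p = 0.926) made up 72.7% to 87.3% on each array. Without Itgam, the other 9 markers summed to 9796 to 16143 on the Wnt4hi arrays and 17458 to 20506 on the Wnt4low arrays, which did not overlap. Of 5 neutrophil markers, 3 were lower and 0 were higher, and S100a8, a calcium-binding protein of neutrophils, also passed the adjusted threshold (log2 fold change -3.04, adjusted p = 0.0401). It was well above background on all Wnt4low arrays and on no Wnt4hi array, at least 5.16-fold lower in Wnt4hi. Of 5 Schwann cell markers 1 was lower. Of 6 acinar markers 1 was lower and 0 were higher, while all 5 that were measured had a log2 fold change below 0, and of 4 ductal markers 1 was lower and 0 were higher. Among endocrine markers, 5 of 9 beta cell markers and 3 of 5 alpha cell markers were higher in Wnt4hi and 0 were lower, and all 5 alpha cell markers had a log2 fold change above 0, with a median of 2.04. Of 3 delta cell markers, Sst and Hhex were lower (log2 fold changes -0.56 and -1.75) and Rbp4 was higher (0.53). The part of these cells in the differences of Mmp2, Mmp14, Timp3 and the ADAMTS genes was not tested, and in bulk samples fewer cells of a type and less RNA per cell cannot be told apart.

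**Figure D4:**
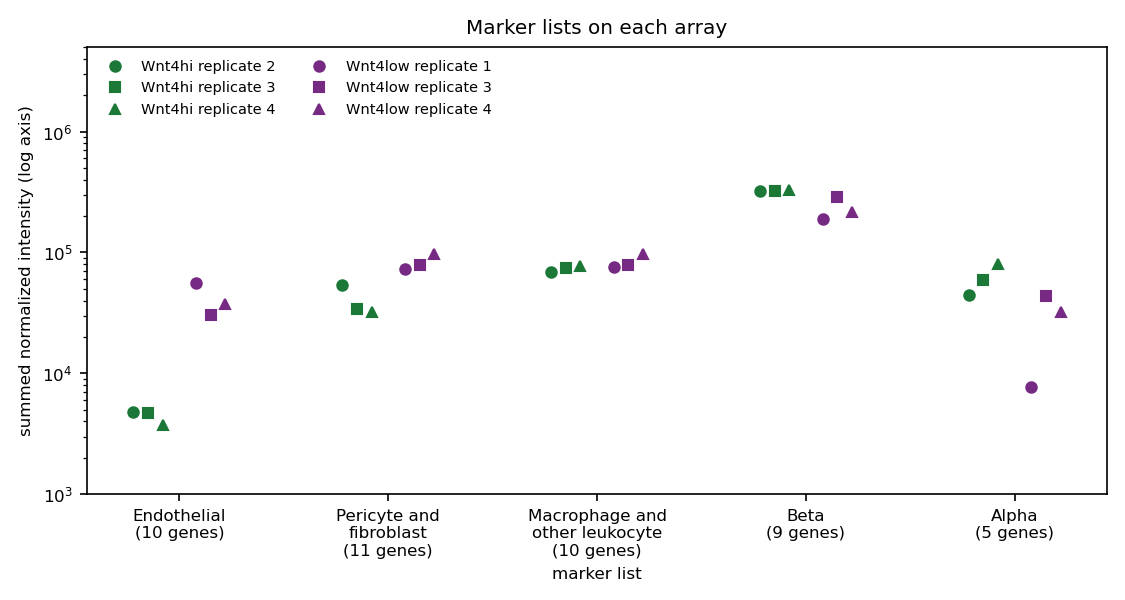
Summed normalized intensity, on a log axis, of 5 marker lists on each of the 3 Wnt4hi (green) and 3 Wnt4low (purple) arrays. The leukocyte sum includes Itgam, which makes up most of it. The endothelial sum is 3738 to 4778 on the Wnt4hi arrays and at least 30468 on every Wnt4low array, and among the Wnt4hi arrays replicate 2 has the highest pericyte and fibroblast sum.

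The Wnt4hi arrays differed among themselves in these genes. Wnt4hi replicate 2 was the brightest of the 3 Wnt4hi arrays for 22 of the 33 measured members, replicate 3 for 8 and replicate 4 for 3. Among the Wnt4low arrays, replicate 1 was the brightest for 16, replicate 3 for 9 and replicate 4 for 8. Wnt4hi replicate 2 also had the highest pericyte and fibroblast sum of the Wnt4hi arrays (54036, beside 34316 and 32182). Without this array, 12 measured members passed as lower at the unadjusted threshold and 0 as higher, beside 5.27% and 5.07% of all features in the same fit. They include 10 of the 11 lower genes named above, with Mmp11 and Timp2 added and Adamts7 lost. The part of the pericyte and fibroblast sum in the brightness of this array was not tested.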

How the data were processed

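The authors deposited, for each of the 6 arrays, unnormalized scanner output (Cy5 intensity of spots and of their surroundings) and a table of normalized log2 values with 1 column for each array. Per the labels, RNA was amplified to cDNA and labelled with Cy5. Groups and replicate numbers came from the sample labels.

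The median spot intensity was background-corrected with limma (version 3.58.1, R 4.3.3), with normexp (offset 50) run on all spots, and log2 values of non-control spots were normalized by quantiles. Spots marked as outliers (50 to 141 per array) were left out, which removed 0 values of members. Saturated spots numbered 0. Spots of a probe were averaged, and the brightest probe stood for a gene. Names came from RefSeq (GRCm38.p6), which matched 25126 of 27845 accessions. lmFit and eBayes without covariates gave p-values, with Benjamini-Hochberg adjustment over 45616 features, tested on simulated data first. A bound for a gene below background took, per dim array, the higher of its value and the lowest value above background. The number of arrays limits the precision.

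Every measured member is named, and values of some other pathway genes are not reported here. Values per array are given for all TIMPs and for members past the unadjusted threshold of 0.05. Members and gene lists were chosen with earlier results of these data known. The alternatives changed the background correction, normalization, dim-probe filter, outlier spots, choice of probe, variance model, source of values and replicate block, and left out each array. The column of the deposited log2 table that bears the name of Wnt4hi replicate 2 correlated at 0.27 with that array, after centring of genes, beside 0.84 to 0.87 for the other 5, so that table served as an alternative, with and without this column, the latter chosen after seeing the data.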

Additional observations from a re-analysis of the deposited data

How the results depend on the processing

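Over the 21 alternatives, 8 to 13 measured members were lower in Wnt4hi at the unadjusted threshold, beside 11 in the analysis reported, and the median stayed between -0.30 and -0.17. Over all features in the same fits, 4.09% to 7.04% were lower and 3.50% to 5.83% were higher, beside 5.53% and 5.02%. Leaving out 1 array gave 8 to 12 lower members, 0 to 1 higher members and a median of -0.26 to -0.17, with 0 members past the adjusted threshold in each, beside 4.65% to 5.72% lower and 3.50% to 5.30% higher of all features. Adamts1, Adamts4, Adamts8, Adamts9, Mmp2 and Timp3 passed the unadjusted threshold in every alternative that held them. In the deposited table, Adamts4, Adamts18 and Timp3 were not analysed here.

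The number of members past the adjusted threshold as lower was 0 in the analysis reported, beside 184 of 45616 features. It was 1 with median centring (Adamts4), beside 248 of 45616 features. The filter on dim probes gave 3 (Adamts4, Adamts8 and Timp3), beside 427 of 31996 features. The number was 1 with the mean of probes and 1 with the probe of smallest p (Timp3 in both), beside 230 and 324 of 45616 features. It was 3 of 30 members with the deposited table (Adamts1, Adamts15 and Timp2), beside 348 of 36689 features. Without that table's column for Wnt4hi replicate 2 it was 5 of 30, beside 288 of 36689 features. The filter tests 31996 features in place of 45616, and its fit also changed the unadjusted limma p-values, for Adamts4 from 0.000538 to 0.000275. The cause of these changes in count was not tested.

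The 1 higher member, Mmp24, was lost (0 higher members) with the filter on dim probes, no background subtraction or an offset of 16. It was also lost with cyclic loess, median centring, processed intensity scaled to the 75th percentile or a robust variance trend. A Student t-test, the replicate block and the deposited table, with and without the column, lost it too. The probe of smallest p gave 2 higher members, Mmp24 and Adamts18. Over all features, 0 to 427 were lower and 0 to 77 were higher at the adjusted threshold, beside 184 and 16. The Student t-test is the one the study's methods give for other measurements, while its arrays were tested with limma. This t-test gave 8 lower members at the unadjusted threshold, beside 4.09% of all features, and 0 after Benjamini-Hochberg. The log2 fold change of Timp4 ran from -0.039 to 0.15 when 1 array was left out, and changed sign without Wnt4hi replicate 3 (-0.039) and without Wnt4low replicate 4 (-0.035).

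The populations share replicate numbers 3 and 4 only, and deviations of same-numbered arrays correlated at -0.04 and 0.18. Over all combinations of a Wnt4hi and a Wnt4low array the correlations ran from -0.26 to 0.19. With 3 arrays per population, these values cannot settle whether the arrays are paired. Same-numbered pools also held equal numbers of pups, 4 each for replicate 3 and 3 each for replicate 4. In the analysis reported the numbers were not taken as pairs. With the replicate block, Wnt4hi replicate 2 and Wnt4low replicate 1 do not enter the difference, which rests on replicates 3 and 4 only. In this fit 12 members were lower, beside 6.11% of all features, 0 were higher and 0 passed the adjusted threshold, and the median was -0.23. Adamts7 was lost, and Mmp11 and Timp2 were added. With the replicate number as a random block the counts were 12, beside 5.85%, 0 and 0.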
